A study of Mus musculus with 12 samples.

Results

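Transcripts of 10 genes of the cell surface and pericellular matrix were followed in 10T1/2 cells on collagen hydrogels with and without the secreted protein ACLP. The genes were Has2, Cd44, Vcan, Sdc1, Sdc2, Sdc3, Sdc4, Gpc1, Gpc4 and Gpc6, chosen by name as genes of hyaluronan, versican, the syndecans and the glypicans, and each symbol matched 1 of the 56748 genes of the count table. ACLP (aortic carboxypeptidase-like protein) is a matrix protein that binds collagen, and the ACLP used here was a recombinant mouse protein made in AD293 cells. 10T1/2 (C3H10T1/2) is an established mouse mesenchymal progenitor line, so every library comes from 1 wild-type line. All cells were serum-starved, held in suspension for 1 h and then seeded for 18 h on gels with a stiffness of 12 kPa that carried type I collagen (0.05 mg/ml). The 4 col1 libraries had collagen alone, the 4 col1-ACLP libraries had collagen polymerized with 30 nM ACLP, and the 4 col1-ACLP+SB libraries had the same matrix with 5 µM SB431542 added at seeding. SB431542 inhibits ALK5, the type I receptor for TGFβ. No group had SB431542 on col1 without ACLP, so an action of the inhibitor that does not need ACLP cannot be told apart from an action on the response to ACLP.

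Hyaluronan is a long sugar polymer without a protein core, spun out through the plasma membrane by hyaluronan synthases, bound at the cell surface by CD44 and held in the matrix by proteoglycans such as versican. Syndecans are transmembrane proteoglycans and glypicans are lipid-anchored ones, and the heparan sulfate chains of both bind growth factors, matrix proteins and enzymes at the cell surface. In mesenchymal cells a hyaluronan and versican coat is known to accompany spreading, migration and matrix remodelling, and syndecans act beside integrins at adhesions.

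Each library held between 29246154 and 52201922 counts of reads assigned to genes, and 16465 genes passed the filter on low counts and were tested, among them all 10 genes described here. Levels are given as CPM, a gene's counts as a share of the library's total, scaled by TMM factors, and levels of different genes are set against each other only as FPKM, which also divides by the gene length given in the table. Differences are log2 fold changes with their standard errors (SE) from edgeR's quasi-likelihood fit of all 12 libraries, and a gene is said to have risen or fallen where its p-value, adjusted by the Benjamini-Hochberg method over all genes tested, was under 0.05. The study's methods also asked for a log2 fold change beyond 0.58, and counts under both rules are given. All 8 mesenchymal markers were present, with a summed level of 25110 to 26030 CPM on col1, 34960 to 43190 CPM on col1-ACLP and 31870 to 37390 CPM on col1-ACLP+SB, most of it from collagen genes. On col1-ACLP against col1, Col1a1 and Col1a2 rose by 0.82 and 0.65 on the log2 scale, Pdgfra and Pdgfrb fell by 0.76 and 0.15 (adjusted p = 1.98e-10 and 0.024 by edgeR), and Thy1, Eng, Ly6a and Vim did not pass the test. Of the 30 markers of endothelial, haematopoietic, epithelial, adipocyte, muscle and neural cells, 23 stayed under 1 CPM in every library. The haematopoietic list, nearly all of it Cd68, summed to 9.13 to 10.0 CPM on col1, 5.45 to 8.71 CPM on col1-ACLP and 7.27 to 9.79 CPM with SB431542, with Adgre1 and Cd3e at a count of 0 and Ptprc at 0.182 CPM or below, and Epcam, Myod1, Myog, Sox10 and Snap25 of the other lists also had a count of 0 in every library. Cd68 itself fell on col1-ACLP against col1, by 0.49 on the log2 scale (adjusted p = 0.0284 by edgeR). The endothelial list, mainly Tek, summed to 5.06 to 8.35, 7.52 to 9.85 and 4.30 to 6.40 CPM in the same groups, no other of these lists passed 5.04 CPM, and the part of these markers in the differences described here was not tested. In bulk RNA, fewer cells of a kind and less RNA per cell cannot be told apart. Replicate 2 of col1 stood apart from the other libraries in a principal component analysis. Its first component was -86.7, against -11.1 to -8.97 for the other col1 libraries. Calls of the 10 genes that change without that library are given beside the gene.

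Cell surface proteoglycans made up the upper end of the per-length levels, and hyaluronan genes and Gpc6 the lower end. On col1 the mean level was highest for Gpc1 (87.8 FPKM) and Sdc2 (81.8 FPKM), whose libraries overlapped, followed by Gpc4 (64.3 FPKM) and Sdc4 (57.0 FPKM). Sdc1 (28.3 FPKM) and Vcan (26.7 FPKM) also overlapped, and Sdc3 (23.6 FPKM), Cd44 (11.9 FPKM), Gpc6 (7.46 FPKM) and Has2 (6.60 FPKM) came below them, with overlap between the last pair. Over all 12 libraries Gpc1 lay at the 98.4th percentile of the tested genes in FPKM, and Has2 and Gpc6 lay at the 65.8th and 65.5th. On col1-ACLP the order was Gpc1 (152.7 FPKM), Sdc2 (101.9 FPKM), Gpc4 (75.9 FPKM) and Sdc4 (54.2 FPKM), with no overlap between these neighbours. Vcan (32.8 FPKM) and Sdc3 (32.5 FPKM) overlapped there, Sdc1 stood at 23.4 FPKM, and Cd44 (10.7 FPKM), Has2 (9.68 FPKM) and Gpc6 (9.03 FPKM) overlapped as neighbours. With SB431542 the first 4 genes kept that order, at 141.6, 92.8, 73.6 and 54.1 FPKM, and the overlapping neighbours were Sdc3 (30.9 FPKM) with Vcan (27.9 FPKM) and Has2 (7.75 FPKM) with Gpc6 (7.24 FPKM).

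**Figure D1:**
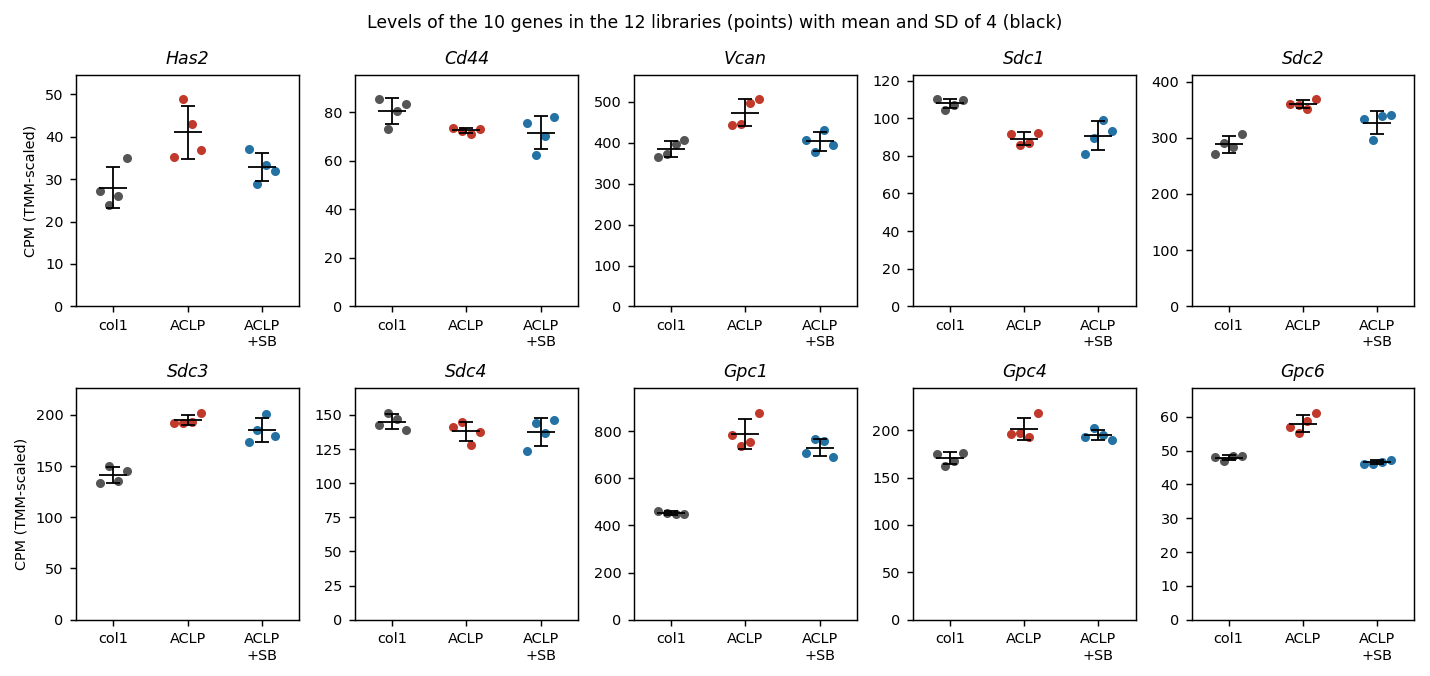
TMM-scaled CPM (y axis, from 0, a scale of its own in each panel) of the 10 genes in the libraries of col1, col1-ACLP and col1-ACLP+SB (x axis), with each library as a point and the mean and SD of 4 in black. Gpc1 lies between 448 and 463 CPM on col1 and between 690 and 879 CPM in the libraries with ACLP, while Gpc6 is above 55 CPM in the col1-ACLP libraries and below 49 CPM in the others.

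ACLP in the collagen went with higher transcript levels of 7 of the 10 genes (Gpc1, Has2, Sdc3, Sdc2, Vcan, Gpc6 and Gpc4) and a lower level of 1 (Sdc1), while Cd44 and Sdc4 did not pass the test. Of all genes tested in that comparison, 9.52% rose and 8.41% fell. The 10 genes lay between the 65.5th and 98.4th percentile of the tested genes in FPKM. Shares among genes of like level were not computed. Under the study's rule 1 of the 10, Gpc1, was higher, against 2.61% of all genes higher and 2.36% lower. The median log2 fold change of the 10 genes was 0.29, and that of all genes was -0.0099. Between col1-ACLP+SB and col1, 4 of the 10 genes were higher (Gpc1, Sdc3, Gpc4 and Sdc2) and Sdc1 was lower, where 4.60% of all genes rose and 4.54% fell. Gpc1 was again past 0.58, as were 1.27% of all genes upward, with 1.01% downward. The median over the 10 genes was 0.12 there, beside 0.0046 for all genes. Between col1-ACLP+SB and col1-ACLP, Vcan and Gpc6 fell, where 0.571% of all genes rose and 0.905% fell. Neither came near a log2 fold change of 0.58 in size, a bar that 0.0850% of all genes passed upward and 0.0425% downward in this comparison. The median of the 10 genes was -0.091 and that of all genes 0.0049. Each group enters more than 1 of these comparisons, so the comparisons share libraries and their values are not independent of each other.

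**Figure D2:**
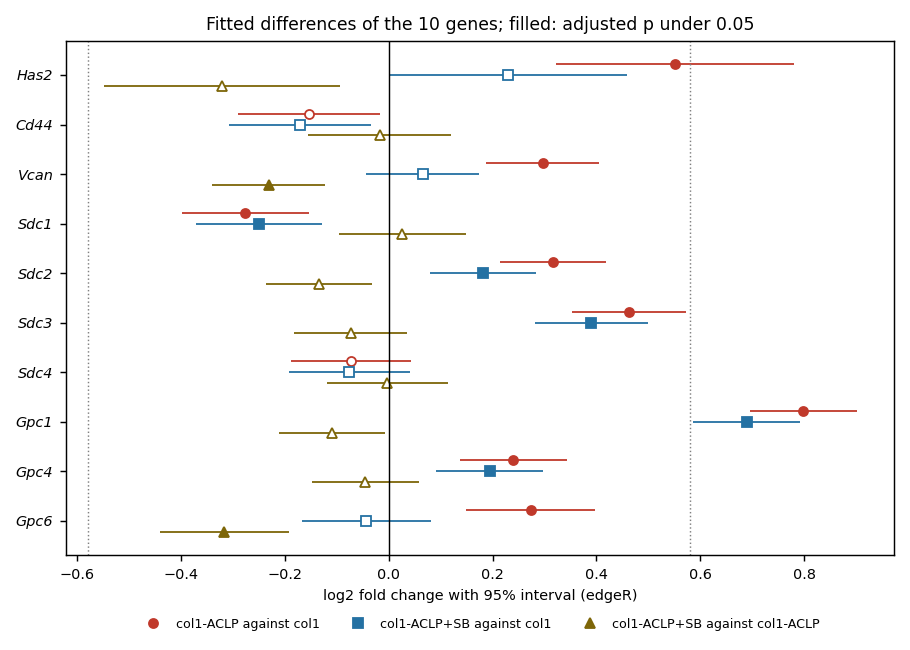
Fitted log2 fold changes (x axis) of the 10 genes (y axis) in the 3 comparisons, as points with 95% intervals, filled where the adjusted p-value of edgeR's test was under 0.05, with dotted lines at 0.58 in either direction. Gpc1 is the only gene with filled points past the dotted line, at 0.80 and 0.69, and Vcan and Gpc6 are the only filled points of the comparison of col1-ACLP+SB with col1-ACLP, at -0.23 and -0.32.

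Has2, the hyaluronan synthase that makes most hyaluronan in many mesenchymal cells, rose on col1-ACLP. The gene lies on the minus strand of chromosome 15 (GRCm39, 56529023 to 56557935). Has2 measured 27.2, 23.8, 25.9 and 34.9 CPM in the col1 libraries, 35.3, 48.8, 43.1 and 36.8 CPM in the col1-ACLP libraries, and 37.0, 28.9, 33.4 and 32.0 CPM in the col1-ACLP+SB libraries. The lowest col1-ACLP library lay just above replicate 4 of col1, the highest of its group, and the libraries with SB431542 overlapped both other groups. The mean rose from 28.0 ± 4.85 CPM (SD, n = 4) to 41.0 ± 6.18 CPM (SD, n = 4), a log2 fold change of 0.55 (SE 0.111), with an adjusted p of 0.000661 by edgeR. That value is just under the 0.58 of the study's rule, and it passed that rule without col1 replicate 4 (0.68), without col1-ACLP replicate 1 (0.62) or without col1-ACLP replicate 4 (0.60). With SB431542 the mean was 32.8 ± 3.35 CPM (SD, n = 4), lying 0.23 (SE 0.111, adjusted p = 0.249 by edgeR) above col1 and 0.32 (SE 0.111, adjusted p = 0.165) below col1-ACLP on the log2 scale. Neither difference passed the test, although the difference from col1 had an adjusted p of 0.0412 by edgeR without col1 replicate 4, and the difference from col1-ACLP had 0.0120 when no filter on low counts was used. Its 95% interval against col1-ACLP was -0.55 to -0.093.

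The other synthases had low counts and did not pass the test: Has1 had 35 to 163 counts per library and Has3 had 83 to 264. Their log2 fold changes on col1-ACLP against col1 were 0.60 (adjusted p = 0.184 by edgeR) and -0.51 (adjusted p = 0.121). Ugdh and Ugp2, enzymes on the route to the UDP-glucuronate that hyaluronan synthases use, differed by 0.029 and 0.13 with adjusted p-values of 0.803 and 0.128. Has2os, a long noncoding RNA gene on the opposite strand over Has2, had 117 to 281 counts, against 854 to 1766 for Has2, and a log2 fold change of 0.17 (adjusted p = 0.667 by edgeR). The strand setting of the counting is not given in the sources used here, so reads of such a pair cannot be told apart with certainty.

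Cd44, the main cell surface receptor for hyaluronan, did not pass the test in any comparison. It lies on the minus strand of chromosome 2 (GRCm39, 102641486 to 102732010). Its level was 85.3, 73.1, 80.7 and 83.4 CPM on col1, against 73.5, 72.3, 71.1 and 73.1 CPM on col1-ACLP, and 75.8, 62.6, 70.1 and 78.0 CPM with SB431542. Replicate 2 of col1 was the lowest of its group and fell within the range of col1-ACLP, and the other 3 col1 libraries lay above it. The log2 fold change against col1 was -0.15 (SE 0.0665, adjusted p = 0.123 by edgeR) on col1-ACLP and -0.17 (SE 0.0664, adjusted p = 0.124) on col1-ACLP+SB. Without col1 replicate 2, the library that stood apart, both passed, at -0.20 (adjusted p = 0.0477 by edgeR) and -0.21 (adjusted p = 0.0480), and with library size as the only scaling the first had an adjusted p of 0.0369. The difference between the libraries with and without SB431542 was -0.018, with a 95% interval from -0.16 to 0.12, and its sign turned under library size scaling (0.0096).

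Vcan encodes versican, a large chondroitin sulfate proteoglycan that binds hyaluronan, and its transcript was higher with ACLP and fell back with SB431542. It lies on the minus strand of chromosome 13 (GRCm39, 89803431 to 89890628). Libraries measured 365.8, 372.3, 397.3 and 406.8 CPM on col1, against 444.2, 445.9, 497.8 and 506.4 CPM on col1-ACLP, and 407.4, 378.7, 431.8 and 395.5 CPM on col1-ACLP+SB. The col1-ACLP libraries lay above all 8 others, and those with SB431542 overlapped col1. From 386 ± 19.6 CPM (SD, n = 4) to 474 ± 33.1 CPM (SD, n = 4), the log2 fold change was 0.30 (SE 0.0529, adjusted p = 0.000171 by edgeR). With SB431542 Vcan fell by 0.23 on the log2 scale from col1-ACLP (SE 0.0529, adjusted p = 0.0234 by edgeR), to 403 ± 22.3 CPM (SD, n = 4), and lay 0.065 above col1 (95% interval -0.044 to 0.17, adjusted p = 0.568). The fall did not hold in each subset of libraries: without replicate 3 or 4 of col1-ACLP the adjusted p was 0.102 or 0.0948, and without replicate 2 or 4 of col1-ACLP+SB it was 0.0744 or 0.0816, by edgeR. Gm4117, a noncoding RNA gene on the opposite strand over Vcan, had 182 to 634 counts, against 11290 to 22396 for Vcan. Gm4117 was higher on col1-ACLP than on col1 by 0.79 (adjusted p = 0.000596 by edgeR) and higher with SB431542 by 0.75 (adjusted p = 0.00165), and differed by -0.032 (adjusted p = 0.973) between the groups with and without the inhibitor.

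The 4 syndecans moved in different directions on col1-ACLP: Sdc2 and Sdc3 rose, Sdc1 fell and Sdc4 did not pass the test. Sdc3, known mainly from nerve and muscle cells, had the largest log2 fold change among them. It lies on the plus strand of chromosome 4 (GRCm39, 130519848 to 130553630). Its libraries were at 133.9, 150.3, 135.9 and 144.8 CPM on col1, against 192.3, 191.7, 192.8 and 202.2 CPM on col1-ACLP, and 174.0, 185.3, 201.0 and 179.8 CPM with SB431542. All 8 libraries with ACLP were above the 4 of col1, and those with and without the inhibitor overlapped. The mean went from 141 ± 7.67 CPM (SD, n = 4) to 195 ± 5.00 CPM (SD, n = 4) with ACLP, a log2 fold change of 0.46 (SE 0.0530, adjusted p = 2.82e-07 by edgeR). With SB431542 it was 185 ± 11.6 CPM (SD, n = 4), still 0.39 above col1 (SE 0.0529, adjusted p = 8.25e-06 by edgeR) with a log2 difference from col1-ACLP of -0.073 (95% interval -0.18 to 0.036, adjusted p = 0.646).

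Sdc2, the common syndecan of fibroblasts, was the most abundant of the family per length in every group. It lies on the plus strand of chromosome 15 (GRCm39, 32920869 to 33035081), the chromosome of Has2. Sdc2 measured 271.4, 291.5, 284.0 and 306.6 CPM on col1, against 359.4, 358.4, 351.1 and 368.4 CPM on col1-ACLP, and 332.8, 296.7, 338.5 and 340.7 CPM with SB431542. The col1-ACLP libraries were above all others, and replicate 2 of the inhibitor group fell among the col1 libraries. The log2 fold change on col1-ACLP against col1 was 0.32 (SE 0.0496, adjusted p = 3.11e-05 by edgeR), from 288 ± 14.7 to 359 ± 7.08 CPM (SD, n = 4 each). With SB431542 the level was 327 ± 20.6 CPM (SD, n = 4), higher than on col1 by 0.18 (SE 0.0495, adjusted p = 0.0179 by edgeR). That call was lost without replicate 1 or 3 of col1 or without replicate 1, 3 or 4 of col1-ACLP+SB, with adjusted p-values of 0.0537 to 0.0806 by edgeR. Against col1-ACLP the difference was -0.13 (95% interval -0.24 to -0.033), with an adjusted p of 0.204 by edgeR, although all 4 libraries were lower.

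Sdc1, the syndecan best known from epithelia and plasma cells, was the 1 gene of the 10 that fell against col1, with ACLP alone and with ACLP and SB431542. It lies on the plus strand of chromosome 12 (GRCm39, 8821323 to 8843715). Its level was 110.0, 104.5, 107.1 and 109.8 CPM on col1, against 91.7, 85.7, 86.9 and 92.2 CPM on col1-ACLP, and 80.7, 89.3, 99.3 and 93.3 CPM with SB431542. All libraries with ACLP lay below all col1 libraries, whether the inhibitor was present or not. It fell by 0.28 on the log2 scale with ACLP (SE 0.0590, adjusted p = 0.00123 by edgeR) and by 0.25 with ACLP and SB431542 (SE 0.0589, adjusted p = 0.00558), from 108 ± 2.60 CPM on col1 (SD, n = 4) to 89.1 ± 3.33 and 90.7 ± 7.78 CPM (SD, n = 4 each). The difference between the groups with and without the inhibitor was 0.026 (95% interval -0.096 to 0.15). Sdc4, a syndecan of focal adhesions, lies on the minus strand of chromosome 2 (GRCm39, 164266167 to 164285807). It was at 142.9, 151.7, 147.0 and 138.8 CPM on col1, against 141.0, 144.7, 128.1 and 137.9 CPM on col1-ACLP, and 123.9, 144.2, 136.5 and 146.1 CPM with SB431542. The 3 groups overlapped. Its log2 fold change against col1 was -0.073 (95% interval -0.19 to 0.044, adjusted p = 0.449 by edgeR) on col1-ACLP and -0.076 (95% interval -0.19 to 0.040, adjusted p = 0.517) with SB431542.

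As shares of the summed FPKM of the 4 syndecans, Sdc2 held 42.9 ± 1.28% on col1 and 48.1 ± 0.417% on col1-ACLP, and Sdc3 held 12.4 ± 0.392% and 15.3 ± 0.361% (SD, n = 4 each). The share of Sdc4 was 29.9 ± 1.25% on col1 and 25.5 ± 0.951% on col1-ACLP, and that of Sdc1 was 14.9 ± 0.646% and 11.0 ± 0.323% (SD, n = 4 each). The libraries of these groups did not overlap in any of the 4 shares, and the shares add up to a whole, so they are not independent. With SB431542 the shares were 46.0 ± 2.34% for Sdc2, 15.3 ± 0.760% for Sdc3, 26.8 ± 1.77% for Sdc4 and 11.8 ± 0.624% for Sdc1 (SD, n = 4 each). The summed level of the family was 191 ± 4.97 FPKM on col1, 212 ± 5.00 FPKM on col1-ACLP and 201.5 ± 8.51 FPKM with SB431542 (SD, n = 4 each).

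**Figure D3:**
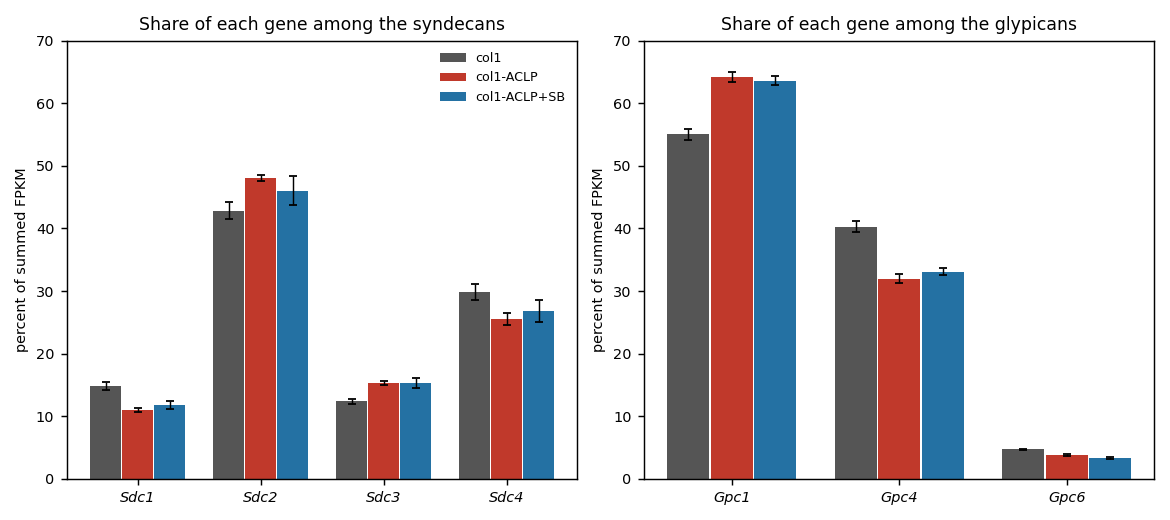
Share of each syndecan (left) and each of the 3 described glypicans (right) in the summed FPKM of its family (y axis, percent, from 0), as the mean of 4 libraries with SD, in col1, col1-ACLP and col1-ACLP+SB. Sdc2 and Sdc3 hold more of their family with ACLP and Sdc1 and Sdc4 less, and Gpc1 goes from 55.0% to 64.2% of the glypicans while Gpc4 goes from 40.3% to 32.0%.

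The promoters of a syndecan that rose (Sdc3), the syndecan that fell (Sdc1) and the syndecan that did not pass the test (Sdc4) are shown with that of Vcan, and were chosen for their different directions on the same matrix. The windows run from 250 bases before to 50 bases after a RefSeq gene start on GRCm38.p6, a different build from that of the positions above, and are written 5′ to 3′ on the strand of the gene. They are chr4:130792287-130792586 (plus strand) for Sdc3, chr12:8771146-8771445 (plus strand) for Sdc1, chr2:164443139-164443438 (minus strand) for Sdc4 and chr13:89742463-89742762 (minus strand) for Vcan. Of the 10 genes, 6 matched the promoter table by symbol (these 4, Cd44 and Gpc4). Capitals mark matches to GGGCGG, the core of the Sp1 site, and to CAGAC, a SMAD site, on either strand.
Sdc3: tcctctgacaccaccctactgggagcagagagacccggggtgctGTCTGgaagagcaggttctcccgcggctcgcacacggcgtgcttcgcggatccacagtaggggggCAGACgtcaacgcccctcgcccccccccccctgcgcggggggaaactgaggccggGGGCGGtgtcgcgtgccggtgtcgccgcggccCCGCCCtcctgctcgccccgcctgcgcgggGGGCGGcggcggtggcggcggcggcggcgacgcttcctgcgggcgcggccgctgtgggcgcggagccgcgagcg
Sdc1: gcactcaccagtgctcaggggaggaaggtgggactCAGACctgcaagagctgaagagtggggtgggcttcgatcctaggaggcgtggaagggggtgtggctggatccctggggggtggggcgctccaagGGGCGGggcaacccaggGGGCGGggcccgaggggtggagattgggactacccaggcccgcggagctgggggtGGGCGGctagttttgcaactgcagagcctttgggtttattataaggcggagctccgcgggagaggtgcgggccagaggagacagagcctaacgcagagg
Sdc4: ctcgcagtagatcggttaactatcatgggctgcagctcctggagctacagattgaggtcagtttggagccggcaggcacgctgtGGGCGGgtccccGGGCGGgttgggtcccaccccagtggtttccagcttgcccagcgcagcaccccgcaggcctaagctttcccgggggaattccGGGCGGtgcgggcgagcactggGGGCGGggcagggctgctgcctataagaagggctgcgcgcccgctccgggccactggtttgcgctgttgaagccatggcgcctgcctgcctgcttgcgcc
Vcan: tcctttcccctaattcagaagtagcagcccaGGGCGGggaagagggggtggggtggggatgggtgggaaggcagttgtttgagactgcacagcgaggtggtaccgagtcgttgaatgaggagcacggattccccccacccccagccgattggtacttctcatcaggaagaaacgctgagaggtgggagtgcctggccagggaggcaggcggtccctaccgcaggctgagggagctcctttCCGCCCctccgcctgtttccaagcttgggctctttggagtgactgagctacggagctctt

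The windows hold 3 matches to the Sp1 letters in Sdc3, 3 in Sdc1, 4 in Sdc4 and 2 in Vcan, and 35.7% of all 32851 promoter windows of that length hold at least 1. CAGAC was found 2 times in Sdc3 and 1 time in Sdc1, and 49.6% of all windows hold it, so a match is common. Neither the AP-1 letters TGANTCA (in 7.81% of all windows) nor the CArG box bound by SRF (in 1.63%) matched in any of the 6 windows, and the TEAD letters GGAATG (in 14.7%) matched 1 time, in that of Gpc4. The GC content of the window was 77.7% for Sdc3, 66.3% for Sdc1, 67.7% for Sdc4 and 61.0% for Vcan. Sdc3, which rose, and Sdc1, which fell, both held matches to the Sp1 and SMAD letters, and a match describes letters, not a bound site.

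All 3 of the expressed glypicans rose on col1-ACLP, and Gpc6 then fell with SB431542 while Gpc1 and Gpc4 did not pass that test. Gpc1, a glypican of many mesenchymal and nervous tissues, had the largest log2 fold change of the 10 genes and lies on the plus strand of chromosome 1 (GRCm39, 92759367 to 92788501). Its libraries were at 462.8, 453.1, 448.4 and 448.0 CPM on col1, against 783.9, 736.7, 752.5 and 879.0 CPM on col1-ACLP, and 708.8, 766.7, 756.8 and 690.0 CPM with SB431542. The 8 libraries with ACLP were far above those of col1, which lay close together, and the groups with and without the inhibitor overlapped. The mean rose from 453 ± 6.89 to 788 ± 63.8 CPM (SD, n = 4 each), 1.74-fold, with a log2 fold change of 0.80 (SE 0.0500, adjusted p = 6.87e-12 by edgeR). With SB431542 it was 731 ± 37.1 CPM (SD, n = 4), 0.69 above col1 on the log2 scale (SE 0.0499, adjusted p = 2.39e-10 by edgeR). The difference between the groups with and without SB431542 was -0.11 (95% interval -0.21 to -0.0065, adjusted p = 0.346 by edgeR), which does not show that their levels were equal.

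Gpc4, known from developing brain and kidney, followed the same order of groups with smaller differences. It lies on the minus strand of the X chromosome (GRCm39, 51141898 to 51254129), 107173 bases from Gpc3, which had 0 to 18 counts per library and was not tested. Gpc4 measured 175.2, 162.7, 167.4 and 176.3 CPM on col1, against 196.0, 197.6, 192.9 and 218.6 CPM on col1-ACLP, and 193.2, 202.8, 194.9 and 189.3 CPM with SB431542. Every library with ACLP was above every col1 library, with or without the inhibitor. The log2 fold change against col1 was 0.24 with ACLP (SE 0.0500, adjusted p = 0.000959 by edgeR) and 0.19 with ACLP and SB431542 (SE 0.0500, adjusted p = 0.0114), from 170.4 ± 6.51 to 201 ± 11.7 and 195 ± 5.68 CPM (SD, n = 4 each). The 95% interval of the difference between the groups with and without the inhibitor was -0.15 to 0.058.

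Gpc6, a glypican of growing bone and other mesenchyme, rose with ACLP and fell again with SB431542. It spans 1051230 bases on the plus strand of chromosome 14 (GRCm39, 117162727 to 118213956), and its neighbour Gpc5, 400135 bases away, had a count of 0 in every library. Libraries of Gpc6 measured 48.0, 46.8, 48.5 and 48.5 CPM on col1, against 56.9, 55.2, 58.8 and 61.2 CPM on col1-ACLP, and 46.1, 46.0, 46.7 and 47.4 CPM with SB431542. The 4 col1-ACLP libraries stood clear of the 8 others, and col1 and col1-ACLP+SB overlapped. The mean was 48.0 ± 0.809 CPM on col1, 58 ± 2.60 CPM on col1-ACLP and 46.5 ± 0.623 CPM with SB431542 (SD, n = 4 each). Gpc6 was higher on col1-ACLP than on col1 by 0.27 (SE 0.0601, adjusted p = 0.00160 by edgeR) and fell by 0.32 from there with SB431542 (SE 0.0603, adjusted p = 0.00586). Its level with SB431542 differed from col1 by -0.043 (95% interval -0.17 to 0.081, adjusted p = 0.779 by edgeR). Of the remaining glypicans, Gpc2 had 0 to 8 counts and was not tested either.

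Gpc1 held 55.0 ± 0.874% of the summed glypican FPKM on col1, 64.2 ± 0.780% on col1-ACLP and 63.6 ± 0.736% with SB431542 (SD, n = 4 each). The share of Gpc4 was 40.3 ± 0.889%, 32.0 ± 0.726% and 33.1 ± 0.583%, and that of Gpc6 was 4.68 ± 0.0869%, 3.80 ± 0.159% and 3.26 ± 0.163%, in the same order of groups. Thus Gpc4 and Gpc6 held a smaller share on col1-ACLP although both had risen. The summed level of the glypicans was 159.6 ± 3.08 FPKM on col1, 238 ± 16.9 FPKM on col1-ACLP and 222.5 ± 8.99 FPKM with SB431542 (SD, n = 4 each), above that of the 4 syndecans in both groups with ACLP and below it on col1.

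For the 3 genes with the largest log2 fold changes, the tested genes with the most similar levels were found by Pearson's r of log2 CPM over the 12 libraries, a description that mainly reads the differences between 3 groups of shared libraries. For Gpc1 they were Trpv4, a calcium channel opened by mechanical and osmotic stress (r = 0.995), Pkm, a pyruvate kinase of glycolysis (r = 0.994), and Col2a1, the chain of cartilage type II collagen (r = 0.994). For Sdc3 they were Rpn1, a subunit of the oligosaccharyltransferase (r = 0.987), Pmp22, a membrane protein of myelin (r = 0.981), and Ccn4, a matricellular protein (r = 0.980). For Has2 they were Cdc42, a small GTPase of the actin cytoskeleton (r = 0.942), Ap3m1, a subunit of an adaptor complex (r = 0.940), and Lbr, the lamin B receptor (r = 0.939).

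Genes that make, modify, bind or cut these chains and proteins were counted in 14 lists that also hold the 10 genes. Of 112 genes besides the 10, 84 were tested, and 19 rose (22.6%) and 6 fell (7.14%) on col1-ACLP against col1, beside 9.52% and 8.41% of all genes, so the share that fell was near that of all genes. The median log2 fold change of the 84 was 0.043 there, 0.033 with SB431542 against col1 and -0.055 between the groups with ACLP. Against col1, 13 rose (15.5%) and 5 fell (5.95%) with SB431542, beside 4.60% and 4.54% of all genes, and the share that fell was again near the background. From col1-ACLP to col1-ACLP+SB 2 rose (2.38%) and 6 fell (7.14%), beside 0.571% and 0.905% of all genes. Without replicate 2 of col1, 11 rose and 7 fell with SB431542 against col1. Between the groups with ACLP 2 rose and 7 fell in that fit. Without replicate 4 of col1-ACLP or replicate 4 of col1-ACLP+SB the last comparison had 1 higher and 3 lower, and without any 1 of the other col1-ACLP libraries or replicate 2 or 3 of col1-ACLP+SB it had 1 higher. Names below beyond the leading gene of each list were chosen after their values were seen.

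**Figure D4:**
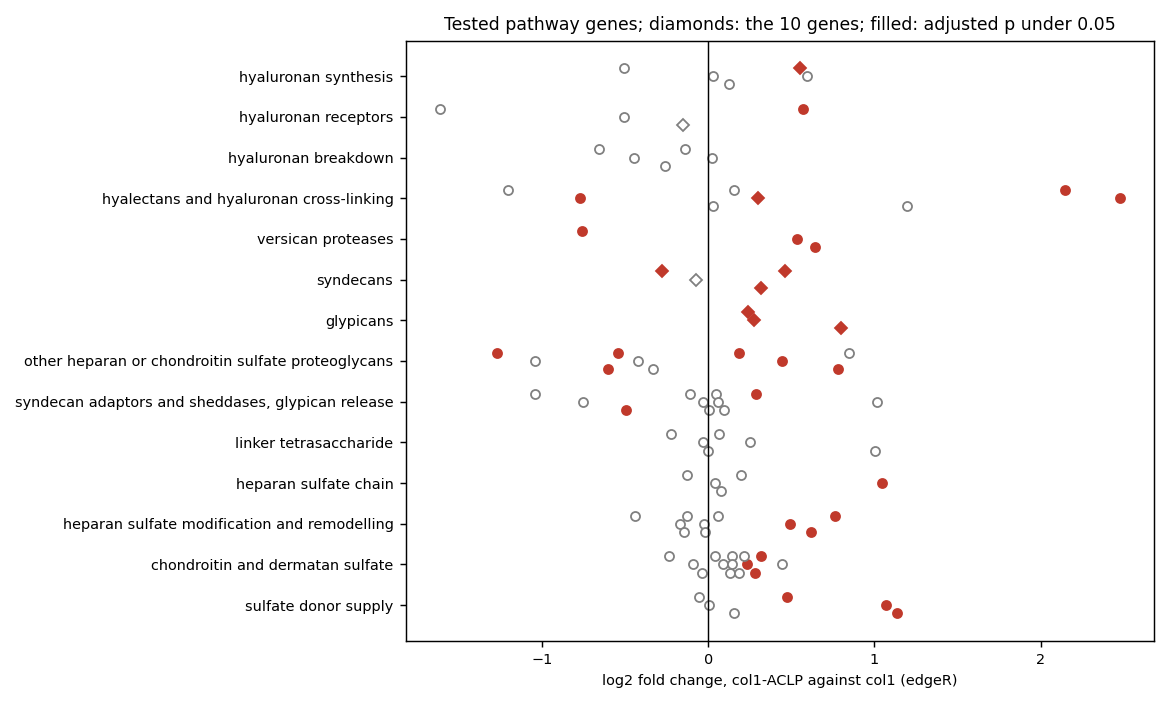
Log2 fold change on col1-ACLP against col1 (x axis) of the tested genes of the 14 lists (y axis), with diamonds for the 10 genes described here, circles for the others, and filled symbols where edgeR's adjusted p-value was under 0.05. Hapln1 is farthest to the right at 2.48, Col18a1 is the lowest filled circle at -1.27, and every symbol of the linker tetrasaccharide and hyaluronan breakdown lists is open.

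Around hyaluronan, 1 of the 4 tested receptor genes rose: Hmmr, which binds hyaluronan and also acts at the mitotic spindle, by 0.57 (SE 0.150, adjusted p = 0.00762 by edgeR), while the list's median was -0.33. The 5 tested genes of hyaluronan breakdown had adjusted p-values of 0.449 or above on col1-ACLP against col1. Of 8 tested genes that encode hyalectans or cross-link hyaluronan, Vcan, Hapln1 and Bcan rose and Itih2 fell. Hapln1, the link protein that ties proteoglycans to hyaluronan, had a mean of 1.53 CPM on col1 and rose to 8.50 CPM with ACLP, by 2.48 on the log2 scale (SE 0.234, adjusted p = 1.17e-08 by edgeR). With SB431542 its mean was 4.76 CPM, higher than col1 by 1.65 (adjusted p = 1.36e-05 by edgeR) and different from col1-ACLP by -0.83 with an adjusted p of 0.0532. Bcan (brevican) and Itih2, a heavy chain that can be passed to hyaluronan, were both scarce, at a mean of 2.11 and 2.12 CPM on col1-ACLP, and Bcan did not pass with DESeq2 (adjusted p = 0.0626). Itih2 lost its call when replicate 2, 3 or 4 of col1 or replicate 1, 2 or 3 of col1-ACLP was left out (adjusted p = 0.0622 to 0.148 by edgeR), and with no filter on low counts (0.118). Of the 3 tested genes of versican-cutting proteases, 2 rose and 1 fell on col1-ACLP. Adamts5 rose by 0.64 (SE 0.0470, adjusted p = 1.19e-10 by edgeR) and Adamts1 by 0.54 (adjusted p = 8.16e-07), and Adamts4 fell by 0.76 (SE 0.0916, adjusted p = 6.35e-07). From col1-ACLP to col1-ACLP+SB the direction turned for each, with Adamts5 at -0.33 (adjusted p = 0.000329 by edgeR), Adamts1 at -0.31 (adjusted p = 0.0136) and Adamts4 at 0.39 (adjusted p = 0.0269). Adamts5 and Adamts1 stayed above col1 with SB431542, by 0.31 (adjusted p = 3.57e-05 by edgeR) and 0.23 (adjusted p = 0.0256). Adamts4 was still below col1 with SB431542, at -0.37 (adjusted p = 0.00788 by edgeR), and its counts are less certain, because the counting rules are not given in the sources used here. Its rise with SB431542 was lost without any 1 of the 4 col1-ACLP libraries or replicate 2, 3 or 4 of col1-ACLP+SB (adjusted p = 0.0542 to 0.115 by edgeR) and with limma-voom (0.0510). The fall of Adamts1 was lost without replicate 4 of either group (adjusted p = 0.0614 and 0.0711 by edgeR). The call of Adamts1 against col1 with SB431542 was lost without replicate 2 or 3 of either group (adjusted p = 0.0529 to 0.0939 by edgeR).

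Other proteoglycans were divided, with 3 of 10 tested genes higher and 3 lower on col1-ACLP. Cspg4 (NG2, a proteoglycan of pericytes and progenitors) rose by 0.78 (adjusted p = 1.03e-09 by edgeR), Agrn (agrin) by 0.44 (adjusted p = 2.56e-07) and Hspg2 (perlecan) by 0.18 (adjusted p = 0.0378). The call of Hspg2 was lost without replicate 1, 2 or 4 of col1 or replicate 3 or 4 of col1-ACLP (adjusted p = 0.0542 to 0.183 by edgeR), with library size scaling (0.117) and with DESeq2 (0.138). Col18a1, whose collagen XVIII carries heparan sulfate in basement membranes, fell by 1.27 (SE 0.0702, adjusted p = 6.45e-13 by edgeR), Tgfbr3 (betaglycan, a TGFβ co-receptor) by 0.60 (adjusted p = 5.29e-07) and Nrp1 (neuropilin, which binds semaphorins and VEGF) by 0.54 (adjusted p = 1.89e-06). With SB431542 Col18a1 was 0.50 above col1-ACLP (SE 0.0700, adjusted p = 0.000290 by edgeR) and still 0.78 below col1 (adjusted p = 9.14e-09). Col18a1 overlaps Slc19a1 on the opposite strand. Cspg4 fell by 0.26 between these groups (SE 0.0640, adjusted p = 0.0378 by edgeR), with overlapping libraries, and stayed 0.52 above col1 (adjusted p = 1.98e-06). That fall was lost without replicate 3 of col1, replicate 1, 3 or 4 of col1-ACLP or replicate 1 or 4 of col1-ACLP+SB (adjusted p = 0.0528 to 0.153 by edgeR) and in a fit of only the 2 groups (0.0785). Of 11 tested genes for syndecan adaptors, sheddases and glypican release, Mmp14, a membrane protease that can shed syndecans, fell by 0.49 (SE 0.0440, adjusted p = 4.14e-09 by edgeR) and overlaps a noncoding RNA gene on its own strand, and Prkca, a kinase that acts with syndecan 4, rose by 0.29 (adjusted p = 0.00245). Sdcbp (syntenin, which binds the tails of syndecans) differed by 0.044 with an adjusted p of 0.618 by edgeR.

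Most genes of the chains themselves did not pass the test on col1-ACLP against col1, and those that passed were higher. The 6 genes of the linker tetrasaccharide, on which every such chain is built, had adjusted p-values of 0.103 or above. Of 5 heparan sulfate chain genes Extl1 rose by 1.04 from a low level (SE 0.220, adjusted p = 0.00104 by edgeR), while the polymerases Ext1 and Ext2 differed by -0.13 and 0.042 with adjusted p-values of 0.0757 and 0.645. Among 10 tested genes of heparan sulfate modification, 3 rose: Glce, the epimerase, by 0.62 (SE 0.0667, adjusted p = 1.11e-07 by edgeR), Hs6st1, a sulfotransferase, by 0.49 (adjusted p = 6.35e-05), and Sulf1, which removes sulfate outside the cell, by 0.76 (adjusted p = 5.37e-05). Sulf1 fell by 0.48 from col1-ACLP to col1-ACLP+SB (SE 0.123, adjusted p = 0.0491 by edgeR), a call lost without any 1 of 9 libraries and kept without col1 replicate 2 or without replicate 1 or 3 of col1-ACLP+SB (adjusted p where lost 0.0516 to 0.164). It was also lost with library size scaling (adjusted p = 0.0646 by edgeR) and in a fit of only the 2 groups (0.0524). Of 14 tested chondroitin and dermatan sulfate genes, Dse, a dermatan sulfate epimerase, rose by 0.28 (SE 0.0552, adjusted p = 0.000493 by edgeR), Chst11, a sulfotransferase, by 0.32 (adjusted p = 0.000552) and Chpf2, a polymerizing factor, by 0.24 (adjusted p = 0.0137). Chpf2, which overlaps Smarcd3 on the opposite strand, did not pass without col1 replicate 3 (adjusted p = 0.0672 by edgeR), without col1-ACLP replicate 4 (0.0617) or with library size scaling (0.0530). Sulfate supply had 3 of 6 genes higher: Slc26a2, the sulfate transporter, by 1.14 (SE 0.0569, adjusted p = 1.27e-13 by edgeR), and the synthases of the sulfate donor Papss2 by 1.07 (adjusted p = 2.06e-13) and Papss1 by 0.47 (adjusted p = 9.82e-08). Slc26a2 and Papss2 both fell by 0.46 from col1-ACLP to col1-ACLP+SB (SE 0.0561 and 0.0545, adjusted p = 5.80e-05 and 4.67e-05 by edgeR) and stayed above col1 by 0.67 and 0.61 (adjusted p = 3.42e-09 and 1.27e-08).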

How the data were processed

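RNA of 12 libraries of 10T1/2 cells was measured by sequencing of poly(A) RNA. The authors mapped reads with HISAT2 and deposited raw counts per gene without normalization. The methods name GRCm39 and the submitters' processing notes mm10. Of the identifiers shared with a GRCm39 annotation (GENCODE vM39), 99.93% overlapped its locus, so GRCm39 was used. The counting tool and its handling of strand and of reads with several positions are not given in the sources used here. The labels number the replicates and the paper calls them biological. Chi-square per degree of freedom between replicates was 7.49 to 20.1 in 18 pairs, above sampling noise, so each library counted as 1 sample.

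Counts were fitted in R 4.3.3 with edgeR 4.0.16 (filterByExpr, 40283 of 56748 genes dropped, TMM factors 0.966 to 1.02, glmQLFit and glmQLFTest, group as the only term), with Benjamini-Hochberg adjustment over 16465 genes. Replicates varied by 0.153 (square root of the common dispersion), and counting error alone, which is all that depth shows, is at most 3.42% (Has2). FPKM was computed from the length column. Principal components and similarity used log2 CPM (prior count 2). The procedure was tested on simulated data.

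Alternatives were RLE factors, library size alone, other filters (none, or a mean of 10 counts), only the 2 groups compared, a replicate block, DESeq2 1.42.0, limma-voom (limma 3.58.1), glmTreat against 0.58, and each library left out in turn. The same alternatives for pathway genes besides the 10 were chosen after seeing the data. The 10 genes, the lists, the tests and the rule for named genes (the 10 genes, their family members, the leading gene of each list by adjusted p against col1 and with SB431542, and the 3 most similar genes of the 3 with the largest changes) were chosen with earlier results of these data known. Promoter windows came from RefSeq (GRCm38.p6).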

Additional observations from a re-analysis of the deposited data

Results flagged for a closer look

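Among 30 sets of 4 libraries (10 genes in 3 groups), 1 held a library far from the other 3 by Dixon's test, which divides the gap to the nearest library by the range. Sdc3 in col1-ACLP replicate 4 stood at 202.2 CPM, where the other 3 libraries of the group lay between 191.7 and 192.8 CPM, a gap ratio of 0.888. Chance flags about 1 in 20 such sets. Without that library Sdc3 was still higher on col1-ACLP than on col1 by 0.45 (adjusted p = 1.62e-06 by edgeR).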

How the results depend on the processing

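Of 600 log2 fold changes recomputed for the 10 genes (3 comparisons, 20 alternatives), 578 kept their sign and their side of the threshold, 5 newly passed, 9 no longer passed and 8 changed sign. All sign changes were between col1-ACLP+SB and col1-ACLP, in values that never passed. Library size alone gave 0.0096 for Cd44 and 0.023 for Sdc4, and a fit of only the 2 groups gave 9.11e-05 for Sdc4. With 1 library left out, Cd44 ranged from -0.061 to 0.040, Sdc1 from -0.023 to 0.077 and Sdc4 from -0.038 to 0.043.

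The count of the 10 genes past the adjusted p-value changed from 8, 5 and 2 to 1, 0 and 0 (on col1-ACLP against col1, with SB431542 against col1, and with SB431542 against col1-ACLP) when edgeR's glmTreat tested each change against 0.58, and at an unadjusted p under 0.05 that test had 1, 1 and 0. With 1 library left out, genes past the study's rule on col1-ACLP against col1 were 1 to 2, and genes past the adjusted p-value between col1-ACLP+SB and col1-ACLP were 1 to 2. For pathway genes besides the 10, those lower with SB431542 than on col1 were 8 with DESeq2 in place of 5. Between col1-ACLP+SB and col1-ACLP, 1 was higher with limma-voom and 1 with the replicate block in place of 2, and with 1 library left out 1 to 3 were higher and 3 to 8 lower. The cause was not tested.

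Replicate numbers did not pair the libraries, since deviations of libraries with the same number correlated at -0.037 to 0.036. With the replicate block no call among the 10 genes changed, and Gpc1 was at 0.80 on col1-ACLP against col1. Among the other pathway genes the replicate block ended the calls of Itih2 on col1-ACLP against col1 (edgeR adjusted p = 0.0636), Chst7 with SB431542 against col1 (0.0553), and Adamts4, Cspg4 and Sulf1 with SB431542 against col1-ACLP (0.0570, 0.0832 and 0.0941). The call of Chst7 was also lost without any 1 of the col1 libraries (adjusted p = 0.0594 to 0.126 by edgeR). Library size alone moved the median of all genes to -0.060, -0.019 and 0.031 in the 3 comparisons. Levels of 147 of 150 FPKM means and all 105 family shares moved by less than 1 SD. A low count limits Has1, Has3, Hapln1, Extl1, Bcan and Itih2, whose intervals are wide.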
